A study of Mus musculus with 514 samples.

Results

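The 10 genes described here are markers of the unfolded protein response and the integrated stress response in the mouse: Atf4, Ddit3 (CHOP), Atf3, Trib3, Chac1, Sesn2, Xbp1, Hspa5 (BiP), Dnajb9 (ERdj4) and Herpud1. They were chosen by gene name, and all 10 were found among the 55168 named genes of a table of full-length RNA-seq values from single oocytes and embryos. The values are transcripts per 1000000 (TPM), 1 column per oocyte or embryo, in 263 libraries of 22 groups. The series addresses how deleting Nr5a2 and Esrrb, which encode nuclear receptors, alters gene expression in the cleaving embryo.

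Knockout and control groups were compared at 5 stages. MII oocytes (OoMII) were NrKO (n = 12, Nr5a2 deleted), NrHet (n = 18, heterozygous for the Nr5a2 deletion) or Nrpp (n = 9, wild-type or floxed alleles). Early 2-cell embryos (E2C) were mz_NrKO (n = 22), m_NrKO (n = 18), z_NrKO (n = 12), mz_NrHet (n = 29) or mz_Nrpp (n = 21), where mz stands for maternal and zygotic, m for maternal and z for zygotic. Late 2-cell embryos (L2C) were mz_DKO (n = 6, both receptors deleted), mz_NrKO (n = 10), mz_EKO (n = 10, Esrrb deleted), z_NrKO (n = 6), mz_DHet (n = 7, heterozygous for both deletions) or z_NrHet (n = 7). The 4-cell groups (4C) were mz_DKO (n = 10), mz_NrKO (n = 5), mz_EKO (n = 4) and mz_DHet (n = 6). The 8-cell groups (8C) were mz_DKO (n = 10), mz_NrKO (n = 10), mz_EKO (n = 10) and mz_DHet (n = 21). The mz_DHet controls therefore carry 1 deleted allele of each receptor. The labels name no Cre driver, strain, age or litter.

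The endoplasmic reticulum (ER) answers misfolded protein through the sensors IRE1, PERK and ATF6. IRE1 splices the Xbp1 mRNA into the form that encodes an active transcription factor, and ATF6 and XBP1 raise chaperones such as Hspa5 and parts of the ER degradation machinery such as Herpud1. PERK and its sister kinases, which sense amino acid shortage, haem shortage or viral RNA, phosphorylate eIF2alpha; bulk translation then falls while translation of Atf4 rises, and ATF4 induces Ddit3, Trib3, Chac1 and Sesn2. Gene-level TPM do not tell spliced from unspliced Xbp1, and Atf4 RNA does not measure ATF4 protein.

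RefSeq promoters of the members (GRCm38.p6, 250 bases before to 50 after the start) were searched on both strands for sites of these pathways. The bases upstream of the start of 3 members are shown because they hold the elements of both branches, and capitals mark the matches. Hspa5 (chr2:34771840-34772089, plus strand) has the ER stress element (CCAAT and CCACG set 9 bases apart) at position -65 from the start and the core of the XBP1 site, TGACGTG, at -157. Herpud1 (chr8:94386179-94386428, plus strand) has the second type of ER stress element (ATTGG and CCACG set 1 base apart) at -52 and the ATF4 and CHOP composite site TGATGNAA, in reverse, at -112. Chac1 (chr2:119350992-119351241, plus strand) has the composite site in reverse at -193.
Hspa5: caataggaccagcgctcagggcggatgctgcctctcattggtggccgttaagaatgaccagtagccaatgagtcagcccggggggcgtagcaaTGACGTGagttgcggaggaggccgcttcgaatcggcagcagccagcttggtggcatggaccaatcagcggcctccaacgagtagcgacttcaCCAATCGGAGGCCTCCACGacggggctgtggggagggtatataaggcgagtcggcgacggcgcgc
Herpud1: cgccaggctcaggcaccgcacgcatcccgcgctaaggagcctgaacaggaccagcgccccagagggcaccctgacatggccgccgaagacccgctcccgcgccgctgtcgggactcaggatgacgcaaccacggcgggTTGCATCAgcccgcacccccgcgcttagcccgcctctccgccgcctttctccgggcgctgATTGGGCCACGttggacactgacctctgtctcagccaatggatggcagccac
Chac1: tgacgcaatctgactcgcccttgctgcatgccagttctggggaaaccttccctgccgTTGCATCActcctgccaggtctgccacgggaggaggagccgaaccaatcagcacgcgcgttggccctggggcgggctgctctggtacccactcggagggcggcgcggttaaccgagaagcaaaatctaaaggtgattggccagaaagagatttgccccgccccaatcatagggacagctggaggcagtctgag
Of 32851 mouse promoters of 300 bases, 0.119% held the first ER stress element, 0.0365% the second, 2.01% the XBP1 core and 3.97% the composite site. The composite site was also present in the Atf3 promoter at -110 and in the Trib3 promoter at 14, so that it was in 4 of 10 members. The cAMP response element TGACGTCA, in 1.79% of all promoters, was in 0 of 10. The nuclear receptor half-site AAGGTCA, in 4.72% of all promoters, was likewise in 0 of 10 members. A match describes these letters in this window and is not evidence of binding. In the GENCODE annotation of mm10, Hspa5 lies at chr2:34771970-34777547, Herpud1 at chr8:94386438-94395377, Chac1 at chr2:119351229-119354381, Xbp1 at chr11:5520659-5525893 and Atf4 at chr15:80255184-80257541; all are protein-coding genes on the plus strand.

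Each library is a whole oocyte or embryo, so fewer cells that express a gene and less RNA per cell cannot be told apart. Libraries were of uneven content: TPM over named genes summed to between 814735 and 995883, and 10655 to 15971 genes exceeded 1 TPM. TPM hold no read counts, so the depth is unknown, and a value of 0 is written as listed at 0. Full-length Esrrb values were lower in 8C mz_EKO (log2 difference to mz_DHet -1.56, limma adjusted p = 0.000277) and 8C mz_DKO (-0.96, adjusted p = 0.0011), while Nr5a2 values were not reduced in the knockouts (8C mz_DKO 0.64, adjusted p = 0.0025), so that the Nr5a2 level does not check the labels. Nor does Esrrb before 8C: its difference was -0.71 in L2C mz_EKO (adjusted p = 0.83), -0.17 in L2C mz_DKO (0.98), -0.22 in 4C mz_EKO (0.97) and -0.76 in 4C mz_DKO (0.43). Replicate 1 of E2C mz_NrKO stood apart, with the lowest TPM sum, 85.7 TPM of Atf3 and 28.2 TPM of Hspa5. Among 8C mz_DHet embryos, replicate 2 stood apart for these genes, with 104 TPM of Herpud1, 102 TPM of Chac1, 96.8 TPM of Trib3 and 251 TPM of Atf4.

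**Figure D1:**
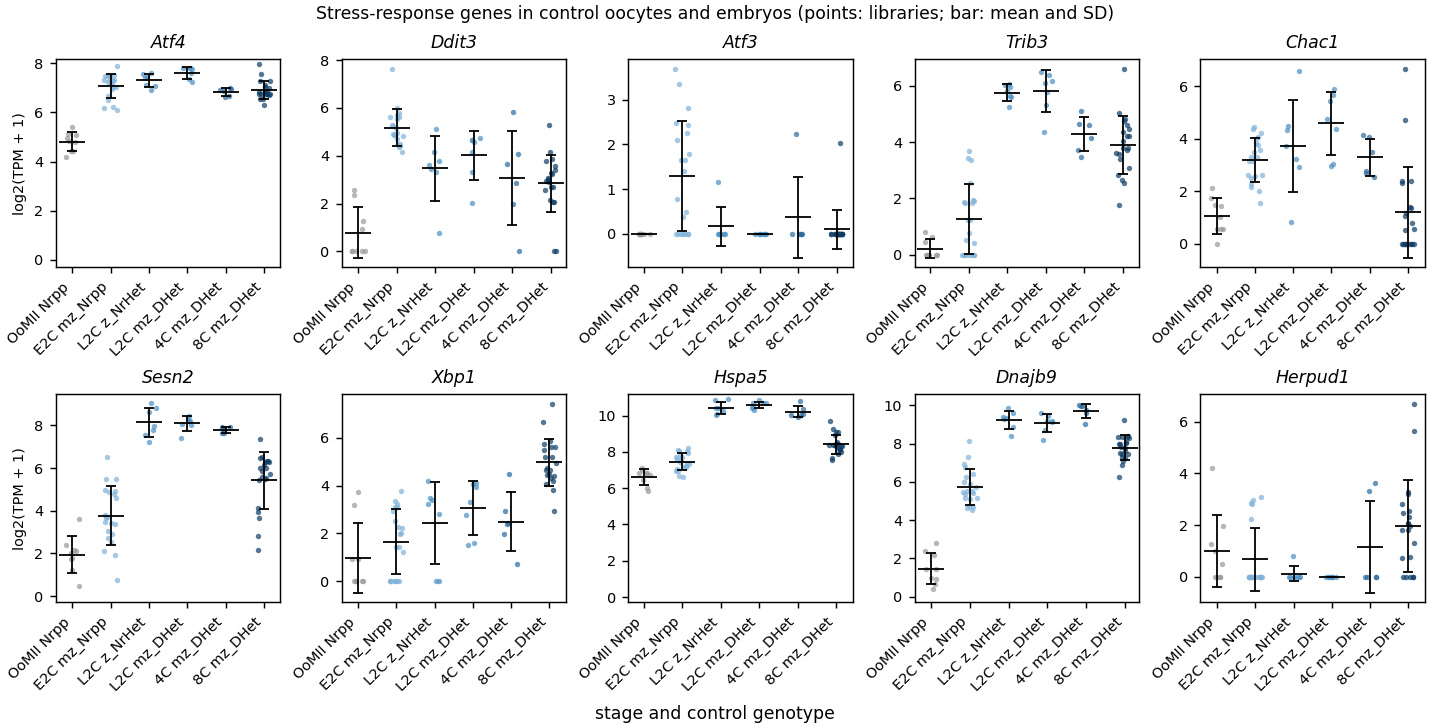
Levels of the 10 genes in control oocytes and embryos, with stage and control genotype along the horizontal axis and log2(TPM + 1) on the vertical axis, on a scale of its own per gene. Points are libraries, and bars are the mean with the SD; Hspa5, Sesn2, Dnajb9 and Trib3 are high from L2C, while Xbp1 is highest at 8C.

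In control embryos the genes fell into separate stage patterns. Hspa5, the main ER chaperone, had 57.0 to 137 TPM in OoMII Nrpp (median 112), 97.0 to 295 TPM in E2C mz_Nrpp (median 176), 1267 to 1826 TPM in L2C mz_DHet (median 1624), 984 to 1754 TPM in 4C mz_DHet (median 1081) and 189 to 819 TPM in 8C mz_DHet (median 326). Its L2C and 4C ranges overlapped, and both lay above the other stages without overlap. Dnajb9, a co-chaperone of BiP, had medians of 1.70, 44.8, 577, 919 and 221 TPM in the same 5 groups, and Sesn2, which restrains mTORC1, had medians of 3.00, 11.5, 292, 223 and 57.3 TPM. Trib3, a pseudokinase that feeds back on ATF4, was listed at a median of 0 TPM in the oocyte and reached 1.32, 67.0, 20.1 and 12.8 TPM in the later groups.

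The transcription factors kept other times. Atf4 had medians of 27.5, 151, 218, 117 and 109 TPM in those 5 groups, and Ddit3 had medians of 0, 30.1, 22.5, 8.91 and 6.76 TPM. Atf3, a factor induced by many stresses, was detected mainly at E2C, where mz_Nrpp embryos had 0 to 12.0 TPM (median 1.63), and at 8C it was listed at 0 in 20 of 21 mz_DHet embryos. Xbp1 was low until the last stage, with medians of 0, 2.89, 9.06, 4.29 and 25.8 TPM, and its 8C mz_DHet values ran from 6.74 to 172 TPM. Herpud1, which links the ubiquitin ligase HRD1 to its partners in ER-associated degradation, was listed at 0 in 7 of 7 L2C mz_DHet embryos and had a median of 2.92 TPM at 8C (range 0 to 104). Chac1, an enzyme that breaks down glutathione, had medians of 1.01, 8.81, 26.3, 8.16 and 0.495 TPM, and 9 of 21 mz_DHet embryos at 8C were listed at 0.

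Stages were tested with limma on log2(TPM + 1), with p-values adjusted over all genes tested, and 9 members passed the filter on low values, all but Atf3. From the oocyte to E2C (mz_Nrpp against OoMII Nrpp), 7 of 9 rose and 0 fell, where 52.2% of genes were called, 39.6% as higher and 12.6% as lower. Ddit3 rose by 4.38 ± 0.45 (SE, log2), Dnajb9 by 4.28 ± 0.32, Atf4 by 2.28 ± 0.18 and Chac1 by 2.15 ± 0.44, against a median difference of 0.43 over all genes. Hspa5 rose by 0.84 ± 0.17, and by 0.43 with an adjusted p of 0.059 under median-of-ratios scaling. That scaling moved the median over all genes to 0.19.

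From E2C to L2C (z_NrHet against mz_Nrpp) 75.7% of genes were called, 36.3% higher and 39.4% lower. Trib3 rose by 4.50 ± 0.40, Sesn2 by 4.38 ± 0.44, Dnajb9 by 3.50 ± 0.36 and Hspa5 by 2.96 ± 0.19, while Ddit3 fell by 1.71 on the log2 scale (SE 0.49, adjusted p = 0.0011). With mz_DHet and mz_NrHet as the control groups instead, the Ddit3 difference was -0.82 with an adjusted p of 0.11. From L2C to 4C (mz_DHet) Atf4 and Trib3 fell, by 0.78 (SE 0.26, adjusted p = 0.031) and by 1.51 (SE 0.52, adjusted p = 0.04), where 11.5% of genes were called, 4.05% higher and 7.41% lower. Neither call held with date in the model (adjusted p = 0.32 for Atf4 and 0.85 for Trib3), and that of Atf4 was also lost against L2C z_NrHet (-0.47, adjusted p = 0.24).

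From 4C to 8C (mz_DHet) 54.3% of genes were called, 16.7% higher and 37.6% lower, and the median over all genes was -0.36. Xbp1 rose by 2.49 ± 0.52 (adjusted p = 2.1e-05). Sesn2 fell by 2.36 on the log2 scale, Chac1 by 2.09, Dnajb9 by 1.93 and Hspa5 by 1.78. Median-of-ratios scaling moved the median over all genes to -0.07, and under it Xbp1 differed by 3.01, Sesn2 by -1.83 and Atf4, not called before, by 0.63 (adjusted p = 0.01). From L2C to 8C (mz_DHet; 61.4% of genes called, 19.1% higher and 42.3% lower) Herpud1 and Xbp1 rose, by 1.98 ± 0.53 and 1.93 ± 0.49, and the other 7 tested members fell. Before L2C, stage and the date in the labels cannot be told apart. The 4C and 8C mz_DHet embryos share no date, and a date term compares them only through L2C embryos. With that term the Xbp1 difference from 4C to 8C was 0.81 ± 1.45 (adjusted p = 0.71), that of Sesn2 -2.11 ± 0.85 (0.061) and that of Chac1 -3.99 ± 1.91 (0.12), so these 3 calls were lost, while Hspa5 (-2.64 ± 0.50, adjusted p = 0.00015) and Dnajb9 (-1.71 ± 0.60, adjusted p = 0.033) kept theirs. With date in the model, the Xbp1 difference from L2C to 8C was 0.95 (adjusted p = 0.33), that of Herpud1 1.78 (adjusted p = 0.16) and that of Ddit3 -1.38 (adjusted p = 0.17), so these 3 calls were lost.

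In oocytes 0 of the 2 members that passed the filter there, Atf4 and Hspa5, were called in any comparison. Hspa5 had 58.6 to 150 TPM in NrKO oocytes (median 102) against 36.5 to 125 TPM in NrHet oocytes (median 67.8), a difference of 0.41 ± 0.12 (adjusted p = 0.13, unadjusted p = 0.0019), and against 57.0 to 137 TPM in Nrpp oocytes (median 112), a difference of 0.10 ± 0.14. The groups overlapped. Over all genes 0.212% were called for NrKO against NrHet, 1.2% for NrKO against Nrpp and 0.0335% for NrHet against Nrpp.

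At E2C, Sesn2 fell in mz_NrKO embryos. It had 0 to 19.0 TPM in mz_NrKO embryos (median 7.83) against 1.49 to 83.3 TPM in mz_NrHet embryos (median 13.1), and 18 of 22 mz_NrKO embryos lay below the mz_NrHet median, with overlapping ranges. The log2 difference was -1.07 ± 0.32 (limma adjusted p = 0.03; 1 of 8 members tested, where 5.17% of genes were called). Against mz_Nrpp embryos (0.700 to 89.4 TPM, median 11.5) it was -0.83 ± 0.38 (adjusted p = 0.25), with 0 of 8 members called and 1.79% of genes. The authors' deposited table lists Sesn2 in that comparison at -1.42 (false discovery rate 0.0261). Dates were uneven at E2C too: 7 mz_NrHet and 9 mz_Nrpp embryos were dated 11 January, a date without mz_NrKO embryos. Of the mz_NrKO embryos 8 were dated 7 November, a date without mz_Nrpp embryos. The ranges, medians and embryo counts given for Sesn2, Dnajb9 and Hspa5 in these E2C groups mix dates.

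The call against mz_NrHet held without mz_NrKO replicate 1 (-0.99, adjusted p = 0.045). Within the date with the most of these embryos, 12 of each genotype, it was -1.31 (adjusted p = 0.06), without the filter its adjusted p was 0.087, and with the replicate number as a block -0.95 (adjusted p = 0.061). Dnajb9 had a median of 29.0 TPM in mz_NrKO against 54.7 TPM in mz_NrHet (-0.62 ± 0.24, adjusted p = 0.11), and Hspa5 165 TPM against 194 TPM (-0.39 ± 0.13, adjusted p = 0.068); neither was called. In m_NrKO against mz_NrHet 0 of 8 members were called (0.245% of genes; 0 members at an unadjusted p under 0.05), and in z_NrKO against mz_NrHet 0 of 8 (0% of genes; Atf4 and Dnajb9 at an unadjusted p under 0.05). Between mz_NrKO and m_NrKO it was 0 of 8 (0% of genes; 0 members at an unadjusted p under 0.05), and between the controls mz_NrHet and mz_Nrpp 0 of 8 (0.268% of genes; Atf4 at an unadjusted p under 0.05).

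No member was called at L2C, in mz_NrKO (0.127% of genes called), mz_EKO (0%), mz_DKO (0.141%) or z_NrKO (0.099%) against their controls, and 1, 0, 0 and 1 of the 8 tested members had an unadjusted p under 0.05. Sesn2 had 159 to 303 TPM in mz_NrKO (median 186) against 167 to 345 TPM in mz_DHet (median 292), a difference of -0.73 ± 0.33 (adjusted p = 0.56). Chac1 had 33.6 to 154 TPM in mz_DKO (median 49.0) against 6.77 to 58.1 TPM in mz_DHet (median 26.3), a difference of 0.96 ± 0.75 (adjusted p = 0.81). Both pairs of groups overlapped. These ranges mix dates: all 10 mz_NrKO embryos were dated 8 March, while 2 mz_DHet embryos were of that date and 5 of 22 May. Of the mz_EKO embryos 8 were dated 8 March and 2 were dated 17 June, a date without L2C mz_DHet embryos. Chac1 was thus expressed in mz_DHet embryos at L2C (median 26.3 TPM), while its median in 8C mz_DHet embryos was 0.495 TPM.

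At 4C, Sesn2 was the only member called in any knockout. It had 95.7 to 187 TPM in mz_DKO embryos (median 132), 102, 194, 154, 188 and 190.2 TPM in mz_NrKO embryos, 285, 251, 172 and 406 TPM in mz_EKO embryos and 198 to 239.5 TPM in mz_DHet embryos (median 223). All 10 mz_DKO embryos and all 5 mz_NrKO embryos lay below the lowest mz_DHet embryo. Of the mz_NrKO embryos 3 were dated 22 May, while 1 mz_DHet embryo was of that date and 5 of 17 June. The difference was -0.70 ± 0.18 in mz_DKO (adjusted p = 0.03; 2.58% of genes called) and -0.55 ± 0.22 in mz_NrKO (adjusted p = 0.31; 0 of 9 members and 0.675% of genes called), and within the main date -0.74 in mz_DKO (adjusted p = 0.023). In the UMI reads of the same embryos it was -0.85 in mz_DKO with an adjusted p of 0.058, and with the replicate number as a block -0.64 (adjusted p = 0.23); without the filter the adjusted p was 0.06. The authors' deposited table lists Sesn2 in 4C mz_DKO at -0.72 (false discovery rate 4.74e-05) in full-length reads and -0.85 (0.00014) in UMI reads, and in 4C mz_NrKO at -0.58 (0.0997) and -0.79 (0.0366).

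Chac1 at 4C was lowest in mz_EKO embryos, which had 1.67, 0, 4.74 and 0 TPM, all 4 below the lowest of the 6 mz_DHet embryos (4.91 to 16.7 TPM). Dates were uneven: 3 of the 4 mz_EKO embryos were dated 22 May, while 1 mz_DHet embryo was of that date and 5 of 17 June. The difference was -2.63 ± 0.66, with an unadjusted p of 0.00043 and an adjusted p of 0.56 (0 of 9 members called; 0% of genes). In mz_NrKO embryos Chac1 had 20.0, 18.7, 21.8, 35.4 and 13.9 TPM, and in mz_DKO embryos 5.61 to 59.1 TPM (median 10.1); neither differed from mz_DHet past the threshold (adjusted p = 0.59 and 0.64). Between mz_DKO and mz_NrKO 0 of 9 members were called (0% of genes; 0 members at an unadjusted p under 0.05).

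At 8C the loss of both receptors changed 6 of the 9 members tested, 5 upward (Chac1, Herpud1, Ddit3, Trib3 and Atf4) and Xbp1 downward. In this comparison 33.7% of genes were called, 18.9% as higher and 14.8% as lower. The 8C comparisons of mz_DKO, mz_NrKO and mz_EKO share the same 21 mz_DHet embryos. Of these, 4 were dated 15 July, a date without mz_DKO or mz_EKO embryos. Of the mz_NrKO embryos 3 were also of that date. The ranges, medians and embryo counts given for mz_DHet and mz_NrKO at 8C include these embryos. The lowest mz_DHet value of Sesn2, 3.43 TPM, is of that date. The median difference of the 9 members was 0.79, against 0.05 over all genes. All 9 had an unadjusted p under 0.05, as did 4614 of the 10876 genes tested.

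**Figure D2:**
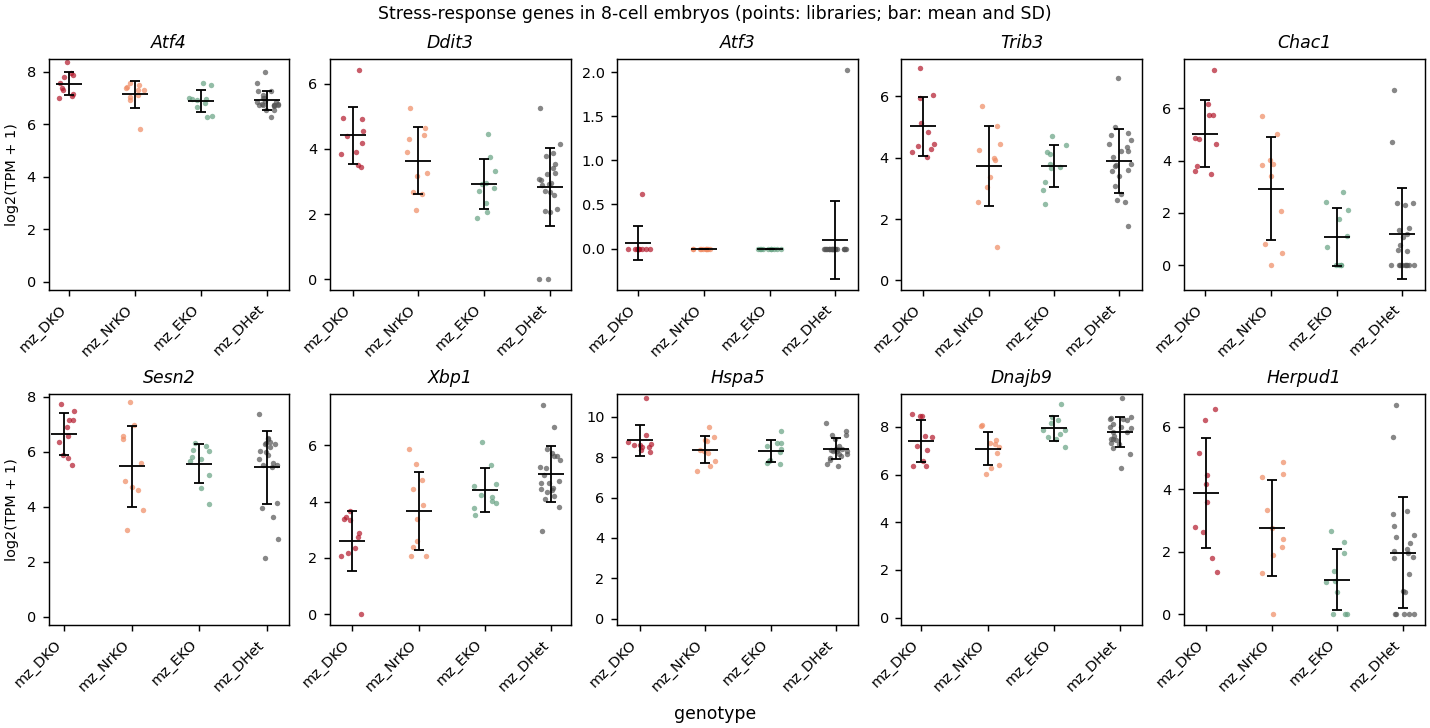
Levels of the 10 genes in 8-cell embryos by genotype (mz_DKO, mz_NrKO, mz_EKO, then the mz_DHet controls), as log2(TPM + 1) on a scale of its own per gene. Points are libraries, and bars are the mean with the SD; Chac1 is at or above 10.1 TPM in all 10 mz_DKO embryos, whereas 19 of 21 mz_DHet embryos lie below that value.

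Atf4, the central factor of the integrated stress response, had 128 to 327 TPM in mz_DKO embryos (median 177) against 76.7 to 251 TPM in mz_DHet embryos (median 109). All 10 mz_DKO embryos exceeded the mz_DHet median, and 6 of 21 mz_DHet embryos exceeded the lowest mz_DKO value. The difference was 0.61 ± 0.16 (limma adjusted p = 0.0021). Ddit3, the death-promoting factor downstream of ATF4, had 9.95 to 85.5 TPM in mz_DKO embryos (median 18.6) against 0 to 37.6 TPM in mz_DHet embryos (median 6.76), and the difference was 1.52 ± 0.39 (adjusted p = 0.0016). All 10 mz_DKO embryos exceeded the mz_DHet median for Ddit3 too. Atf3 was listed at 0 in 9 of 10 mz_DKO embryos (highest 0.534 TPM) and in 20 of 21 mz_DHet embryos (highest 3.08 TPM), and it did not pass the filter; without the filter its difference was -0.04 (adjusted p = 0.91).

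Among the targets of ATF4, Chac1 had the largest difference. It had 10.1 to 177 TPM in mz_DKO embryos (median 27.9) against 0 to 102 TPM in mz_DHet embryos (median 0.495). Only 2 of 21 mz_DHet embryos, replicates 2 and 4, exceeded the lowest mz_DKO embryo. The difference was 3.83 ± 0.62 (adjusted p = 1.9e-06), and 4.17 without mz_DHet replicate 2. Since 9 mz_DHet embryos were listed at 0, its size depends on the pseudocount and was 5.64 with log2(TPM + 0.1). Chac1 reached 5 TPM in 10 mz_DKO, 6 mz_NrKO, 1 mz_EKO and 2 mz_DHet embryos. It thus passed the filter at 8C only with the mz_DKO embryos counted, and its place among the 9 members tested depends on the group where it was high.

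Trib3 had 15.2 to 121 TPM in mz_DKO embryos (median 24.0) against 2.39 to 96.8 TPM in mz_DHet embryos (median 12.8), a difference of 1.06 ± 0.39 (adjusted p = 0.03), with the 10 mz_DKO embryos above the mz_DHet median. The Trib3 call rested on single libraries: it was lost without mz_DHet replicate 14 or without mz_DKO replicate 1, 4 or 6 (largest adjusted p 0.095). It was also lost without the filter (adjusted p = 0.075) and with the replicate number as a block (0.065). Sesn2 had 44.6 to 214 TPM in mz_DKO embryos (median 106) against 3.43 to 163 TPM in mz_DHet embryos (median 57.3), a difference of 0.79 ± 0.33 that was not called (adjusted p = 0.059); it was called without mz_DHet replicate 2 or without mz_DKO replicate 2 or 8 (smallest adjusted p 0.011), and under median-of-ratios scaling (0.046).

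Of the ER genes, Xbp1 went the other way. It had 0 to 11.7 TPM in mz_DKO embryos (median 6.00) against 6.74 to 172 TPM in mz_DHet embryos (median 25.8). Of the 10 mz_DKO embryos 6 lay below the lowest mz_DHet embryo, and only 1 of 21 mz_DHet embryos lay below the highest mz_DKO embryo. The difference was -2.12 ± 0.36 (adjusted p = 3.9e-06). At 4C the medians of Xbp1 were 4.74 TPM in mz_DKO embryos and 4.29 TPM in mz_DHet embryos, and the difference in effect between 8C and 4C, -2.01 ± 0.75, was not called (adjusted p = 0.10).

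Herpud1 had 1.55 to 95.1 TPM in mz_DKO embryos (median 14.2) against 0 to 104 TPM in mz_DHet embryos (median 2.92), a difference of 2.01 ± 0.60 (adjusted p = 0.0074), and 13 of 21 mz_DHet embryos exceeded the lowest mz_DKO value. Hspa5 had 306 to 1962 TPM in mz_DKO embryos (median 390.0) against 189 to 819 TPM in mz_DHet embryos (median 326), and its difference of 0.42 ± 0.21 was not called (adjusted p = 0.12); the highest value belongs to mz_DKO replicate 1, and the difference was not called in any of 31 fits that left out a single library. Dnajb9 had 79.9 to 369 TPM in mz_DKO embryos (median 168) against 76.0 to 590 TPM in mz_DHet embryos (median 221), a difference of -0.53 ± 0.23 (adjusted p = 0.071). It was called without mz_DHet replicate 2 or 7, or without mz_DKO replicate 1, 4 or 8 (smallest adjusted p 0.025).

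Within the date that holds most 8C embryos (9 mz_DKO and 15 mz_DHet) the same 6 members were called: Chac1 at 4.07, Herpud1 at 2.07, Ddit3 at 1.22, Trib3 at 1.21, Atf4 at 0.68 and Xbp1 at -1.94. Dnajb9 was called there as well, at -0.63 (adjusted p = 0.023). The share of all genes called within this date is not given here, and over all dates it was 33.7%. In UMI reads, which come from the 5' ends of transcripts of 9 of the same mz_DKO and 16 of the same mz_DHet embryos and so are not independent samples, 8 of 9 members were called (34.6% of genes), with Chac1 at 3.56 ± 0.50, Herpud1 at 2.49 ± 0.58, Xbp1 at -1.29 ± 0.31, Sesn2 at 0.90 ± 0.26 and Dnajb9 at -0.61 ± 0.22. The authors' deposited table, a comparison of the same full-length libraries, lists Chac1 at 4.11 (false discovery rate 0.000515), Xbp1 at -1.88 (1.18e-06), Sesn2 at 0.75 (0.0297) and Hspa5 at 0.53 (0.0114).

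With loss of Nr5a2 alone 3 of 9 members were called at 8C, a share near that of all genes (28.3% called, 14.1% higher and 14.2% lower). Chac1 rose, with 0 to 50.5 TPM in mz_NrKO embryos (median 11.6) against 0 to 102 TPM in mz_DHet embryos (median 0.495), a difference of 1.70 ± 0.61 (adjusted p = 0.029). Xbp1 fell, with 3.17 to 57.5 TPM in mz_NrKO embryos (median 11.5) against 6.74 to 172 TPM in mz_DHet embryos (median 25.8), a difference of -1.46 ± 0.35 (adjusted p = 0.0012). Dnajb9 fell, with 64.2 to 266 TPM in mz_NrKO embryos (median 148) against 76.0 to 590 TPM in mz_DHet embryos (median 221), a difference of -0.61 ± 0.23 (adjusted p = 0.041). The ranges of the groups overlapped for all 3, and 8 of 10 mz_NrKO embryos lay above the mz_DHet median for Chac1.

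The Xbp1 call held in each of 31 fits that left out a single library. The Chac1 call was lost in 6 of them (without mz_NrKO replicate 2, 3, 4, 5, 8 or 9), and the Dnajb9 call in 14 (without mz_NrKO replicate 1, 2, 6, 7, 8 or 10, or mz_DHet replicate 1, 8, 9, 10, 11, 12, 20 or 21). Within the main date Chac1 was at 2.47 (adjusted p = 0.0033), Xbp1 at -1.56 (0.002), Ddit3 at 1.33 (0.012) and Dnajb9 at -0.44 (0.19). Without the filter and with the replicate number as a block Xbp1 alone was called, and Dnajb9 missed the threshold under median-of-ratios scaling (adjusted p = 0.054). In UMI reads, available for 5 of the 10 mz_NrKO and 16 of the 21 mz_DHet embryos, 4 of 9 members were called (25.4% of genes): Chac1 at 2.11 ± 0.62, Ddit3 at 1.15 ± 0.31, Hspa5 at 0.68 ± 0.19 and Xbp1 at -1.86 ± 0.38. The full-length difference of Hspa5 was -0.07 ± 0.21 (adjusted p = 0.85). The authors' deposited table lists Xbp1 at -1.32 (false discovery rate 0.0015) and Chac1 at 2.47 (0.0835).

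Loss of Esrrb alone changed 0 of 9 members at 8C (0 at an unadjusted p under 0.05), where 0.00919% of genes were called and 257 genes had an unadjusted p under 0.05. Chac1 had 0 to 6.01 TPM in mz_EKO embryos (median 0.891) against a mz_DHet median of 0.495 TPM, and Xbp1 had 10.5 to 67.9 TPM in mz_EKO embryos (median 17.3) against a mz_DHet median of 25.8 TPM. Their differences were -0.10 ± 0.62 and -0.31 ± 0.36.

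The genotypes were also compared with each other. Between mz_DKO and mz_NrKO embryos 0 of 9 members were called (0.147% of genes), with Chac1 at 2.13 ± 0.73 (unadjusted p = 0.0051, adjusted p = 0.28) and Trib3 at 1.17 ± 0.46 (unadjusted p = 0.015, adjusted p = 0.40). A miss of the threshold does not show that these genotypes were alike. Between mz_DKO and mz_EKO embryos 7 of 9 were called (30.2% of genes), 6 higher and Xbp1 lower (-1.82 ± 0.40); Sesn2 was among them at 1.09 ± 0.38 (adjusted p = 0.024). Between mz_NrKO and mz_EKO embryos Xbp1 was called, at -1.15 ± 0.42 (adjusted p = 0.04; 22.7% of genes), and that call was lost in 9 of 20 fits that left out a single library (without mz_EKO replicate 1, 3, 6, 7 or 8, or mz_NrKO replicate 3, 5, 7 or 9; the count of called members then ran from 0 to 2).

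**Figure D3:**
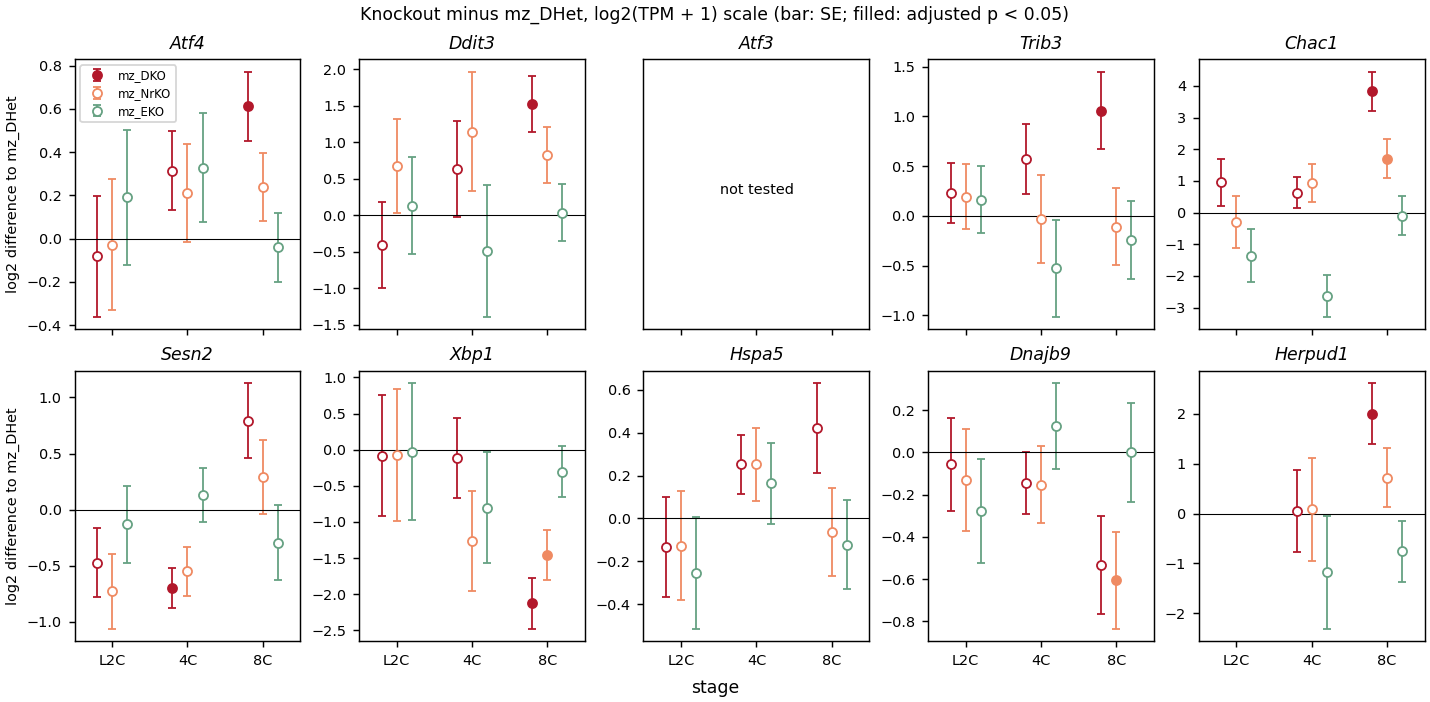
Log2 difference of each knockout to mz_DHet on the log2(TPM + 1) scale at L2C, 4C and 8C, on a scale of its own per gene. Bars are the SE, and filled points have an adjusted p under 0.05; at 8C the filled points are 6 members in mz_DKO and 3 in mz_NrKO, and at 4C the sole filled point is Sesn2 in mz_DKO at -0.70.

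Effects at different stages were tested against each other in a joint fit. For mz_DKO the effect at 8C exceeded that at 4C for Chac1 by 3.20 ± 0.89 (adjusted p = 0.015) and for Sesn2 by 1.49 ± 0.43 (adjusted p = 0.022), where 5.83% of genes were called. The Sesn2 difference to mz_DHet was -0.70 at 4C and 0.79 at 8C. Between 8C and L2C 0 of 9 members were called (5.14% of genes), though 5 had an unadjusted p under 0.05, Chac1 at 2.88 ± 0.99 (adjusted p = 0.069) among them. That unadjusted threshold was passed by 3241 of the 18111 genes tested. For mz_NrKO 0 of 9 were called between 8C and L2C (1.75% of genes; Sesn2 at an unadjusted p under 0.05) and between 8C and 4C (1.4%; 0 members at an unadjusted p under 0.05). For mz_EKO 0 of 9 were called in both (0% of genes; Chac1 between 8C and 4C at an unadjusted p of 0.026).

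The other genes of the pathways, from lists chosen by function, were mixed in 8C mz_DKO embryos, and their counts are read beside the 18.9% and 14.8% of all genes called. Of 19 ER chaperones and folding enzymes tested, 1 rose (Pdia3, 0.46) and 7 fell, among them the disulfide isomerase Pdia6 (-1.04, adjusted p = 0.00071) and Creld2 (-0.91, adjusted p = 8e-05); the median was -0.14. Of 20 genes of ER-associated degradation and translocation 5 rose and 1 fell, with Edem1, a lectin that extracts misfolded glycoproteins, at 1.69 ± 0.27 (adjusted p = 2.3e-06) and the ubiquitin-conjugating enzyme Ube2j1 at 0.69 ± 0.20 (adjusted p = 0.0052). Edem1 had 41.4 to 116 TPM in mz_DKO embryos (median 59.6) against 0.707 to 67.1 TPM in mz_DHet embryos (median 16.4).

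Of 13 sensors and processing enzymes 4 rose, among them Creb3l4 (1.13), Bax (0.38) and Mbtps1 (0.59), and 1 fell. Of 15 genes of the eIF2 kinases, phosphatases and eIF2B, 1 rose, the haem-regulated kinase Eif2ak1 (0.63, adjusted p = 0.023), and 1 fell, Eif2b3 (-0.37, adjusted p = 0.021). Of 28 further targets of ATF4 and CHOP 11 rose and 6 fell (median 0.19). Stc2, a secreted glycoprotein, was at 2.81 ± 0.45 (adjusted p = 1.6e-06) and Pck2, the mitochondrial PEP carboxykinase, at 2.24 ± 0.43 (adjusted p = 3.5e-05), whereas the serine synthesis enzyme Psat1 was at -0.93 ± 0.15 (adjusted p = 1.4e-06) and the factor Nfil3 at -2.10 ± 0.32 (adjusted p = 6.4e-07). Pck2 had 14.5 to 135 TPM in mz_DKO embryos (median 59.3) against 2.07 to 107 TPM in mz_DHet embryos (median 8.20), and Psat1 had 447 to 1439 TPM (median 803) in mz_DKO against 463 to 2015 TPM (median 1636) in mz_DHet. Genes of this list thus moved in both directions.

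Of 12 aminoacyl-tRNA synthetases under ATF4 1 rose (Aars, 0.96) and 1 fell (Tars, -0.74). Of 13 genes of the cytosolic heat shock response 2 rose (Hsph1 and Hspa4) and 3 fell, of 13 of the mitochondrial unfolded protein response 2 rose (Ubl5 and Lonp1) and 0 fell, and of 14 targets of NRF2, the factor of oxidative stress, 3 rose and 3 fell. In 8C mz_NrKO embryos, where 14.1% of all genes were called higher and 14.2% lower, 0 of 19 ER chaperones rose and 8 fell (median -0.47). Of 28 targets of ATF4 and CHOP 4 rose and 5 fell there, shares near those of all genes.

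Markers of other cells and stages were read beside these values. The summed level of 8 oocyte and cleavage-stage markers was 2306 to 3621 TPM in 8C mz_DKO embryos (median 2837) and 1763 to 9110 TPM in mz_NrKO embryos (median 3268), against 1056 to 4037 TPM in mz_DHet embryos (median 1393), and all 3 of those tested, Dppa3, Zp3 and Tdpoz4, rose in mz_DKO. The median of that sum was higher in both knockouts than in mz_DHet, and its part in the member results was not tested. The sum of 7 blood markers was 2.05 to 34.2 TPM in mz_DKO against 0 to 6.68 TPM in mz_DHet, carried by the alpha-globin genes, with Hbb-bs, Hbb-bt and Ptprc listed at 0 in all mz_DKO embryos; 0 of the 7 passed the filter, and their part was not tested. Of 12 cumulus and granulosa markers 1 passed the filter, Hsd17b1, which fell in mz_DKO (-1.45); their sums reached 4.72 TPM in mz_DKO and 13.1 TPM in mz_DHet, and those of 6 sperm markers 2.18 and 2.02 TPM. The sum of 5 oviduct epithelium markers, of which the embryo itself expresses Krt8 and Epcam, had a median of 218 TPM in mz_DKO against 328 TPM in mz_DHet.

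Members were also followed from embryo to embryo within control groups. Among the 21 mz_DHet embryos at 8C, 36 pairs of 9 members were compared on the log2(TPM + 1) scale, and 3 passed by Pearson's r with a permutation test adjusted over the pairs. Chac1 and Herpud1 had r = 0.80 (adjusted p = 0.0029; Spearman's rho 0.62, adjusted p = 0.14), Atf4 and Herpud1 r = 0.79 (adjusted p = 0.0022; rho 0.53, adjusted p = 0.27) and Atf4 and Chac1 r = 0.70 (adjusted p = 0.028; rho 0.27, adjusted p = 0.60). Without the 2 embryos farthest from the median of the first gene r was lower in all 3, at 0.39, 0.46 and 0.04, and among the 15 embryos of the main date it was 0.62, 0.71 and 0.53. The Atf4 and Chac1 relation rests on those 2 embryos, and no pair passed by both measures. Among the 29 mz_NrHet embryos at E2C, 1 of 28 pairs of 8 members passed, Sesn2 and Dnajb9 (r = 0.65, adjusted p = 0.0034; rho 0.54, adjusted p = 0.092; 0.47 without the 2 farthest embryos and 0.73 among the 12 embryos of the main date).

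**Figure D4:**
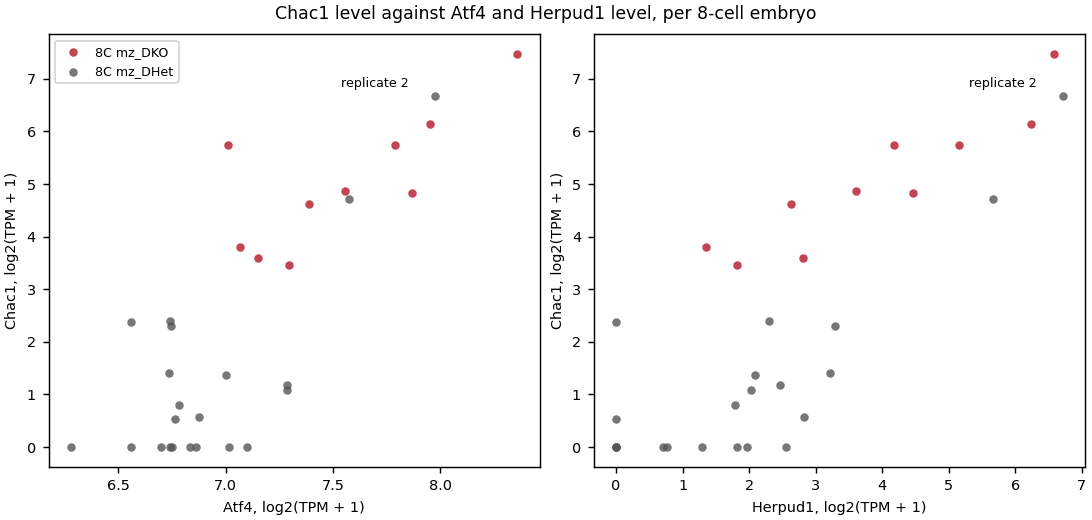
Chac1 level against Atf4 level (left) and Herpud1 level (right) in each 8-cell mz_DKO and mz_DHet embryo, all as log2(TPM + 1). Points are embryos; replicate 2 of mz_DHet, with 102 TPM of Chac1, lies among the mz_DKO embryos, and 19 of 21 mz_DHet embryos have less Chac1 than any mz_DKO embryo.

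As a description, the genes whose group means over the 22 groups were most like each member were found by Pearson's r, over points that share libraries and stages. Hspa5 was followed by Dolk (r = 0.99), Slc35e2 and Rpusd3, Dnajb9 by Ddx20 (0.99), Xpo1 and Dis3, and Sesn2 by Btbd18 (0.99), Ntmt1 and Mgat2. Trib3 was nearest to Jund (0.99), Sac3d1 and Tmem251, Atf4 to Txndc9 (0.98), Lyrm1 and Chtop, and Ddit3 to Tmem92 (0.95), Got2 and Tmem38a. Herpud1 was nearest to Itm2a (0.94), Gsc and Zfp966, Xbp1 to Ehd1 (0.91), Zfand2b and Ralb, and Chac1 to Fam110a (0.89), Armc12 and Rgs16. For Atf3, at 0 in most libraries, the nearest were Slc16a7 (0.96), Rnf150 and Ppp1r3a, all low in mean level. Between members, Hspa5 and Sesn2 had r = 0.98 and Hspa5 and Xbp1 r = 0.36.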

How the data were processed

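RNA of single oocytes and embryos was sequenced with a protocol derived from FLASH-seq, per the labels' protocols. The authors deposited TPM per gene and library (transcripts per 1000000), for 263 full-length libraries and 110 libraries of UMI reads, with 0 other columns of single samples left unused; 65 entries without a gene name were left out. The programs cutadapt, STAR, RSEM and DESeq2 and the build mm10 are named in the submitters' processing notes; versions and the strandedness of counting are not given in the sources used here. The authors also deposited, per the file headers, log2 fold changes and false discovery rates (adjusted p-values) of their own comparisons. Depth is unknown, since TPM keep no counts.

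The scale of all tests was log2(TPM + 1), on which changes of low genes come out too small. A gene was tested at a stage when the number of its libraries at 5 TPM or more reached the size of the smallest group there. Each stage was fitted in limma 3.58.1 (R 4.3.3, limma-trend, two-sided, group and the date of the labels as factors), with Benjamini-Hochberg adjustment over all genes tested and calls at an adjusted p under 0.05; control development had no date term. The fits were tested on simulated data. Since mothers and litters are not labelled, a p-value reflects variation among these libraries, which may be technical. Same-numbered libraries were checked for shared deviations: of 23 comparisons only NrHet against Nrpp oocytes had all pairs (9) over 0.1, and there no member was called with or without the block. Correlations used 100000 permutations. Alternatives were another pseudocount, no filter, 2 scalings, no date term, a single date, the replicate block, UMI reads, other controls and left-out libraries.

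The members and lists were chosen with earlier results of these data known. Named genes were the 10 members, up to 4 called genes with the smallest adjusted p per list and comparison, the 3 genes most like each member, and the targets Nr5a2 and Esrrb; the markers named beside their sums were chosen after their values were seen. Some genes of the lists are counted but not reported by name here. Ddit3 names 2 overlapping GENCODE genes on chromosome 10 and has 1 entry in the table. Gm12981 overlaps Sesn2 on its own strand, and Gm24748, Gm15890 and Mir5627 overlap Atf3, Herpud1 and Dnajb9 on the opposite strand; without the strand setting, reads of these pairs cannot be told apart. All 10 members matched RefSeq promoters (GRCm38.p6).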

Additional observations from a re-analysis of the deposited data

Results flagged for a closer look

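Of 112 member and group combinations with 4 to 10 libraries, 12 had a library whose gap to the next value was large for the range of its group, where chance gives about 1 in 20. At 8C these were mz_DKO replicate 1 for Hspa5 (1962 TPM) and Ddit3 (85.5 TPM), mz_DKO replicate 8 for Xbp1 (listed at 0 TPM) and mz_NrKO replicate 1 for Atf4 (56.0 TPM). At L2C they were mz_EKO replicate 9 for Chac1 (listed at 0 TPM) and Sesn2 (70.0 TPM), mz_EKO replicate 10 for Dnajb9 (313 TPM), mz_NrKO replicate 6 for Hspa5 (449.9 TPM) and replicate 2 for Atf4 (52.9 TPM), z_NrKO replicate 1 for Atf4 (270.4 TPM), mz_DHet replicate 3 for Sesn2 (167 TPM) and z_NrHet replicate 2 for Ddit3 (0.686 TPM). The Ddit3 and Xbp1 calls in 8C mz_DKO held without each of these libraries. Each of the 2 effects of the double knockout that differed between 8C and 4C was found by a test of the difference itself, 3.20 for Chac1 and 1.49 for Sesn2 on the log2 scale.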

How the results depend on the processing

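Of 372 counts of called members under an alternative, 340 were within 1.5 times the main count. Of 275 values of called members, 234 kept their call, 41 lost it and 0 turned direction; of 156 values of listed genes, 140 kept it, 16 lost it and 0 turned. In E2C mz_NrKO against mz_NrHet 1 member was called, against 0 with no filter, 2 with no date term, 0 under the replicate block and 0 within a single date; against mz_Nrpp it was 0, and 1 with no date term; in m_NrKO it was 0, and 1 within a single date. In 4C mz_DKO against mz_DHet it was 1, against 0 with no filter, 0 under the replicate block and 0 in UMI reads. In 8C mz_NrKO against mz_DHet it was 3, against 1 with no filter, 1 under the replicate block and 1 to 3 without single libraries (1 without mz_NrKO replicate 2 or 8). Leaving out single libraries at 8C was chosen after seeing the data. In 8C mz_NrKO against mz_EKO it was 1, against 0 with no filter, 0 with a pseudocount of 0.1, 2 with no date term, 3 within a single date, 4 in UMI reads and 0 to 2 without single libraries. From L2C to 4C in controls it was 2, against 1 with other control groups, 1 with a pseudocount of 0.1 and 0 with date in the model; from 4C to 8C it was 5, against 2 with date in the model, a fit added after seeing the data. These member counts stand here without the share of all genes called under each alternative. The cause of these moves was not tested. With no filter more genes share the adjustment, and a single date holds fewer libraries. Outside the oocyte pair named above, same-numbered libraries share a number and in part a date. A date was shared by 21 of 22 pairs in E2C mz_NrKO against mz_NrHet and by 2 of 7 in L2C mz_NrKO against mz_DHet. Over 248 same-numbered pairs in 23 comparisons r ran from -0.274 to 0.545, 63 were over 0.1 and 23 libraries correlated best with their own number. Date was not removed from these correlations. Under the replicate block 13 of 19 member calls were kept. Low members (Xbp1, Herpud1, Chac1, Atf3) are limited by unknown depth, and their values of 0 may be unread transcripts.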

Other observations

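In full-length reads of 8C mz_DKO embryos the single highest values of Chac1, Trib3, Herpud1 and Atf4 belonged to the same embryo, replicate 4, with 177, 121, 95.1 and 327 TPM, while its Xbp1 was at 5.67 TPM. In UMI reads the highest values of these genes were in the library numbered 3, with 120, 49.3, 73.8 and 312 TPM. Whether these numbers name the same embryo was not checked. Among mz_DHet embryos the 4 dated to 15 July had Sesn2 at 3.43, 6.02, 14.3 and 16.5 TPM, against a group median of 57.3 TPM, and replicate 1, of another date, had 11.5 TPM. At E2C, Ddit4, an ATF4 target that restrains mTORC1, rose in mz_NrKO against mz_NrHet (1.18 ± 0.23, limma adjusted p = 0.0005), while Sesn2 fell; against mz_Nrpp it was 1.02 ± 0.27 (adjusted p = 0.023).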
